A study of Mus musculus with 9 samples.

Results

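Gene expression in GFP-positive LSK cells that carried the transgene labelled dnMPL was compared with that in LSK cells of control mice. The comparison used 6 of the 9 arrays of the series, 3 in each group, chosen by their titles, and covered all 45037 non-control probe sets of a mouse expression array. LSK cells lack lineage markers and carry Sca1 and cKit on their surface, and they hold the blood stem cells and multipotent progenitors of the bone marrow. Lineage-negative marrow cells of C57BL/6 donors were cultured with stem cell factor, thrombopoietin and other growth factors, exposed to a retroviral vector and injected into lethally irradiated C57BL/6 hosts. LSK cells were sorted 8 weeks later. The GFP-positive group came from hosts given dnMPL-transduced cells, and its GFP signal marks cells with the transgene. The control group came from hosts given wild type LSK cells. The sources used here do not say which vector, if any, the control cells had received, so effects of dnMPL, of the vector and of the sort by GFP cannot be told apart. Each array held amplified RNA of LSK cells from a marrow pool (2 to 5 mice), and with 3 arrays a group the precision of all values is limited. Whether the pools of a group came from separate transductions is not stated, and p-values then measure only the spread between these pools.

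Blood stem cells stay mostly quiescent, renew themselves and give rise to multipotent progenitors, which commit stepwise to the myeloid, red cell, megakaryocyte and lymphoid lineages. Growth factors of the marrow act on them through surface receptors that signal through the kinase Jak2, STAT transcription factors, and the MAP kinase and PI3 kinase pathways. The comparison addresses which genes differ in stem and progenitor cells that carry the transgene.

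Levels are log2 RMA values, on which a difference of 1 is a doubling. The medians of the arrays lay between 4.52 and 4.64 and their pairwise correlations between 0.886 and 0.97. A pair of arrays, control 3 and GFP-positive 2, differed from the rest of their groups. For Gapdh, the control transcript whose 3′ probe set exceeds its 5′ probe set when RNA or amplification is incomplete, this excess was 3.87 on control 3 and 3.22 on GFP-positive 2, and between 2.47 and 2.89 on the other 7 arrays of the series. Array weights estimated by limma were 0.42 and 0.37 on these arrays and between 0.738 and 2.85 on the others. The medians of most gene lists are therefore given with all 6 arrays and without these 2, called the arrays that stood apart. The cell type was checked by its gate. Kit, the receptor that defines the gate, stood at 8.73, 8.67 and 8.08 on the controls and at 8.17, 6.38 and 8.17 on the GFP-positive arrays, and Ptprc, the pan-leukocyte antigen CD45, at 10.07 to 10.59 on all 6. Kit was thus lowest on GFP-positive 2, with overlapping groups. Ly6a, which encodes Sca1, was not analysed here.

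No probe set passed the threshold. With limma and Benjamini-Hochberg adjustment over 45037 probe sets, 0 had an adjusted p under 0.05 (0.0%), and the smallest adjusted p was 0.54. At an unadjusted p under 0.05, 1168 probe sets were higher (2.59%) and 1035 lower (2.3%) in GFP-positive cells. Among 18193 named genes, each taken at its brightest probe set, 478 were higher (2.63%) and 469 lower (2.58%) at that p. The 3 GFP-positive values all lay above the 3 control values in 650 genes (3.57%) and all below in 655 (3.6%). The difference was above 0 in 46.6% of genes, with a median of -0.03. These percentages are the background against which every count below is to be read. Of 12398 genes above the 40th percentile of level, 83 were higher by over 2 and 51 lower by over 2. Groups did not overlap in 54 and 31 of them, and in 8.61% of all genes above that percentile. Groups with a difference over 2 are more often separate, so these counts do not show an excess over that share. For list members, which were mostly above that percentile, 8.61% is the nearer share in either direction. Over the 12398 genes the median SD within a group was 0.45 in controls and 0.44 in GFP-positive cells. Every difference named below is therefore a description that did not pass the adjusted threshold.

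Of the genes higher in GFP-positive cells, Fcgr3, an activating Fc gamma receptor of myeloid cells, had the smallest p. It stood at 5.41, 5.25 and 5.84 on the controls and at 7.65, 7.08 and 7.51 on the GFP-positive arrays, and the difference was 1.92 ± 0.24 (SE; limma adjusted p = 0.54). All 3 GFP-positive values lay well above the highest control, and the SD was 0.3 in both groups. Gda, which encodes guanine deaminase, an enzyme of purine breakdown, was at 3.65, 4.86 and 4.21 in controls and at 8.88, 8.28 and 7.04 in GFP-positive cells, a difference of 3.83 ± 0.59. The groups lay far apart, and the other probe sets of Gda gave 2.21 and 1.57. Slc4a1, which encodes the red cell anion exchanger, showed the largest difference of these genes, 4.36 ± 0.74. Its controls spread widely, at 3.19, 2.2 and 4.94, below GFP-positive values of 7.59, 8.87 and 6.96. The other probe sets of Slc4a1 gave 2.50 and 0.19. Its control mean of 3.44 was near the lower end of the range, where a difference has no exact size.

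The remaining higher genes were likewise separate between the groups on every array, as the rule for choosing them required. Dram1, a lysosomal membrane protein linked to autophagy, was higher by 2.72 ± 0.43, at 2.8 to 3.91 in controls and 5.56 to 6.66 in GFP-positive cells. Fabp4, a fatty acid carrier of fat cells, macrophages and endothelium, was higher by 3.02 ± 0.5, although 1 of its other 3 probe sets gave -0.36. Car1, a carbonic anhydrase of red cells, and Ctsg, cathepsin G of neutrophil granules, were higher by 2.73 ± 0.49 and 2.61 ± 0.48. Mtus1 and Afap1, which encode proteins that bind microtubules and actin, were higher by 3.04 ± 0.53 and 2.15 ± 0.37. Control means of Dram1, Mtus1 and Afap1 were low, at 3.46, 3.31 and 3.59, so their differences have no exact size. Other probe sets gave 0.17 and 1.93 for Mtus1 and 0.17 and 0.88 for Afap1. Melk, a kinase of dividing progenitors, and Lin54, a subunit of the DREAM complex that controls cell cycle genes, were higher by 2.04 ± 0.39 and 2.15 ± 0.42. Gria3, a glutamate receptor subunit, and Cemip2, a hyaluronan-degrading membrane protein, differed by 1.41 and 1.04 with little spread, their SDs lying between 0.07 and 0.22. However, the other probe sets of Cemip2 gave 0.20 and 0.06, and that of Gria3 gave 0.63. Rala, a small GTPase, was higher by 1.85 ± 0.25, but its other probe sets gave -0.32 and -0.37, so the probe sets of this gene disagree.

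The genes lower in GFP-positive cells were led by Il15, a cytokine that supports natural killer and memory T cells. Il15 stood at 6.28, 6.03 and 6 on the controls and at 3.76, 3.57 and 4.34 on the GFP-positive arrays, a difference of -2.21 ± 0.32 (limma adjusted p = 0.54). The groups did not overlap and the controls agreed within an SD of 0.15. Prdm16, a zinc finger regulator that blood stem cells need for their upkeep, was at 7.01, 7.06 and 6.28 in controls and at 5.12, 3.82 and 4.75 in GFP-positive cells, a difference of -2.22 ± 0.49. Its other 3 probe sets were also lower, by smaller amounts of -0.18, -0.46 and -0.67. Csgalnact1, which starts chondroitin sulfate chains, differed by -3.62 ± 0.7, Timp2, an inhibitor of matrix metalloproteinases, by -2.48 ± 0.47 and Bgn, the proteoglycan biglycan, by -1.77 ± 0.35. Of the other 5 probe sets of Timp2, 2 gave small positive values of 0.17 and 0.07. Those of Bgn gave -0.13 and -0.98, and that of Csgalnact1 gave -0.77.

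Cadps2, a protein of regulated secretion, differed by -2.95 ± 0.46 and Plxdc2, a membrane protein with a plexin domain, by -3.06 ± 0.6. Ctla2a, an inhibitor of cysteine proteases, was at 12.29, 12.24 and 12.08 in controls and at 10.88, 11.01 and 11.33 in GFP-positive cells. This difference of -1.13 ± 0.23 was the smallest among the lower genes, and both groups kept a high signal. Polg2, the accessory subunit of the mitochondrial DNA polymerase, and Mmaa, a mitochondrial protein of vitamin B12 metabolism, differed by -1.92 and -1.87. Cdc42bpa, a kinase that acts on the actin-myosin cytoskeleton, and Tspyl1, a nucleosome assembly family protein, differed by -1.83 and -1.66. Fndc10, Zfr2 and Tgds differed by -2.58, -2.01 and -1.78. Further probe sets gave -1.64 for Fndc10, -0.37 for Zfr2, and -0.18, -0.21 and -1.40 for Cdc42bpa. Of all 30 genes taken by this rule, 18 had other probe sets, which all had the same sign in 15. Without control 3 and GFP-positive 2 the differences were between 0.713 and 1.18 times as large. Their sign could not change, because the rule required separate groups.

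**Figure D1:**
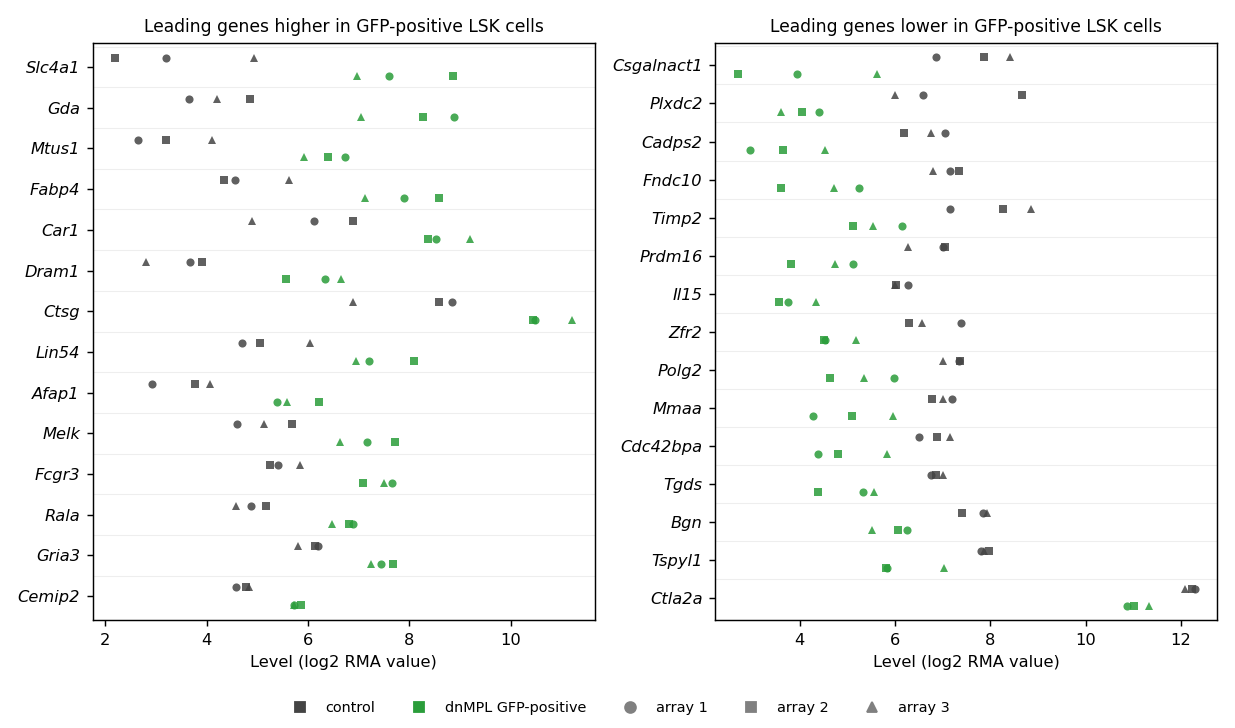
Levels (log2 RMA value, horizontal axis) of the leading higher and lower genes on the 3 control arrays (grey) and the 3 GFP-positive arrays (green), with a marker shape for each array number, which does not pair arrays. Groups do not overlap for any gene, which the rule for choosing them required, and Slc4a1 and Csgalnact1 show the largest differences, 4.36 and -3.62.

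Signalling proteins that act below cytokine receptors had differences near the background. Of 22 measured Jak, STAT and kinase signalling proteins, 10 were higher and 12 lower, groups did not overlap in 1 in each direction (background 7.17% in either), and 0 had an unadjusted limma p under 0.05 (background 5.21% in either direction). Their median difference was -0.04 with all arrays and also without the arrays that stood apart, against -0.03 over all genes. Jak2, a kinase bound to cytokine receptors, stood at 7.84, 7.21 and 7.78 on the controls and at 6.87, 7.46 and 7.54 on the GFP-positive arrays, with overlapping groups and a difference of -0.32 ± 0.3. Stat3 and Stat5a, transcription factors activated by Jak2, were at 8.63 and 8.74 in controls and at 8.64 and 8.74 in GFP-positive cells. Sh2b3, the adaptor Lnk that restrains cytokine signalling, was at 5.5, 7.1 and 6.7 in controls and 7.26, 7.2 and 7.53 in GFP-positive cells. Its groups did not overlap, and the difference of 0.9 ± 0.53 rested on a wide control spread (SD 0.83). Gab1, a docking protein, and Pik3r1, the regulatory subunit of PI3 kinase, differed by -0.54 ± 0.27 and -0.55 ± 0.28, and Ptpn6, the phosphatase Shp1, by 0.5 ± 0.25. Groups overlapped for Pik3r1 and Ptpn6, whose differences were -0.26 and 0.28 without the arrays that stood apart. The other probe sets of Pik3r1 gave 0.78, -0.93 and 0.10.

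Known STAT target and feedback genes were also mixed, with 7 of 16 higher and 9 lower. Cish, a feedback inhibitor induced by STAT5, was at 6.14, 6.26 and 5.11 in controls and at 5.47, 4.66 and 4.93 in GFP-positive cells, a difference of -0.82 ± 0.34 (limma adjusted p = 1.0). Control 3 lay below GFP-positive 1, so the groups overlapped. Mcl1, a survival factor of the BCL2 family, was at 11.28, 11.06 and 11.79 in controls and at 10.58, 10.9 and 10.74 in GFP-positive cells. These groups did not overlap, and the difference was -0.64 ± 0.24. Socs2, another feedback inhibitor, differed by -1.24 ± 0.8 with controls spread from 3.39 to 6.24. Its difference was -1.97 without GFP-positive 2, -0.53 without control 2 and -2.67 without both control 3 and GFP-positive 2. Myc, a growth regulator, was lower on every GFP-positive array by a small amount (-0.26 ± 0.2). The median of the list was -0.1, and 0.02 without the arrays that stood apart.

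Transcription factors of stem cells were mostly lower in GFP-positive cells. Of 27 measured, 24 were lower and 3 higher. All GFP-positive values lay below all controls in 9 and above in 0 (background 3.6% and 3.57%). An unadjusted limma p under 0.05 was found in 10, all lower (background 2.58%). The median difference was -0.63, and -0.58 without control 3 and GFP-positive 2. Mycn, a MYC family factor, was at 9.39, 8.82 and 8.72 in controls and at 6.21, 3.6 and 7.39 in GFP-positive cells, a difference of -3.24 ± 0.81. GFP-positive 2 was far below the others, the value without that array was -2.18, and the other probe sets of Mycn gave -0.19 and 0.32. Lmo2, a bridging factor of the stem cell transcription complex, was more even, at 11.21, 11.22 and 11.48 against 10.35, 10.22 and 10.7. Its difference was -0.88 ± 0.21, and every GFP-positive value was below every control.

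Other members showed how far 1 array weighed. Hlf, a factor of self-renewal, stood at 9.21, 9.47 and 9.95 in controls and at 8.72, 5.96 and 8.77 in GFP-positive cells. All GFP-positive values were below the controls, but the difference of -1.73 became -0.6 without the arrays that stood apart. Erg, an ETS factor needed by stem cells, went from -1.03 to -0.47 and Meis1, a cofactor of Hox proteins, from -1.11 to -0.57 in the same way. For Hoxa9 and Mecom, both regulators of stem cell self-renewal, the differences were -0.86 and -0.9 with all arrays and -0.97 and -1.08 without. Runx1 and Mllt3, further regulators of blood stem cells, differed by -0.63 and -0.81 with groups that did not overlap. Gata2, Etv6 and Tal1, also stem cell factors, differed by -0.56, -0.49 and -0.3 with groups that overlapped.

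Surface and niche genes of stem cells gave 19 lower and 5 higher of 24. Of these, 5 lay below all controls (background 3.6%) and 6 were lower at an unadjusted limma p under 0.05 (background 2.58%). The median of the list was -0.42, and -0.53 without the arrays that stood apart. Procr, the endothelial protein C receptor and a stem cell marker, was at 7.57, 7.85 and 8.69 in controls and at 6.46, 7.05 and 6.09 in GFP-positive cells, a difference of -1.5 ± 0.36. The groups did not overlap. Angpt1, which encodes a ligand of the receptor Tek, was at 9.08, 9.46 and 8.52 in controls and 7.68, 8.04 and 8.22 in GFP-positive cells, a difference of -1.04 ± 0.29, and its other probe set gave -1.20. Emcn, a sialomucin of endothelium and stem cells, was at 7.24, 6.72 and 4.59 in controls and 4.39, 3.79 and 4.24 in GFP-positive cells. Control 3 came close to the GFP-positive arrays, and the difference was -2.05 ± 0.62.

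Tek itself, the angiopoietin receptor, was at 5.11, 6.06 and 6.81 in controls and at 2.17, 6.41 and 4.13 in GFP-positive cells. The groups overlapped, and the difference of -1.76 ± 1.09 was -0.73 without GFP-positive 1 and -2.85 without GFP-positive 2. Tie1, a receptor related to Tek, and Ctnnal1, alpha-catulin, a stem cell marker, differed by -1.63 ± 0.67 and -1.17 ± 0.36 with groups that did not overlap. Esam, an adhesion molecule of stem cells, differed by -0.43 ± 0.35 and its groups overlapped. Cd27, a costimulatory receptor, differed by -1.06 ± 0.36, and by -0.54 without the arrays that stood apart. Slamf1, the stem cell marker CD150, was at 3.13, 4.12 and 5.11 in controls and 3.26, 6.54 and 3.25 in GFP-positive cells. Its high value on GFP-positive 2 gave a mean difference of 0.23 ± 0.91, which was -0.86 without that array.

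**Figure D2:**
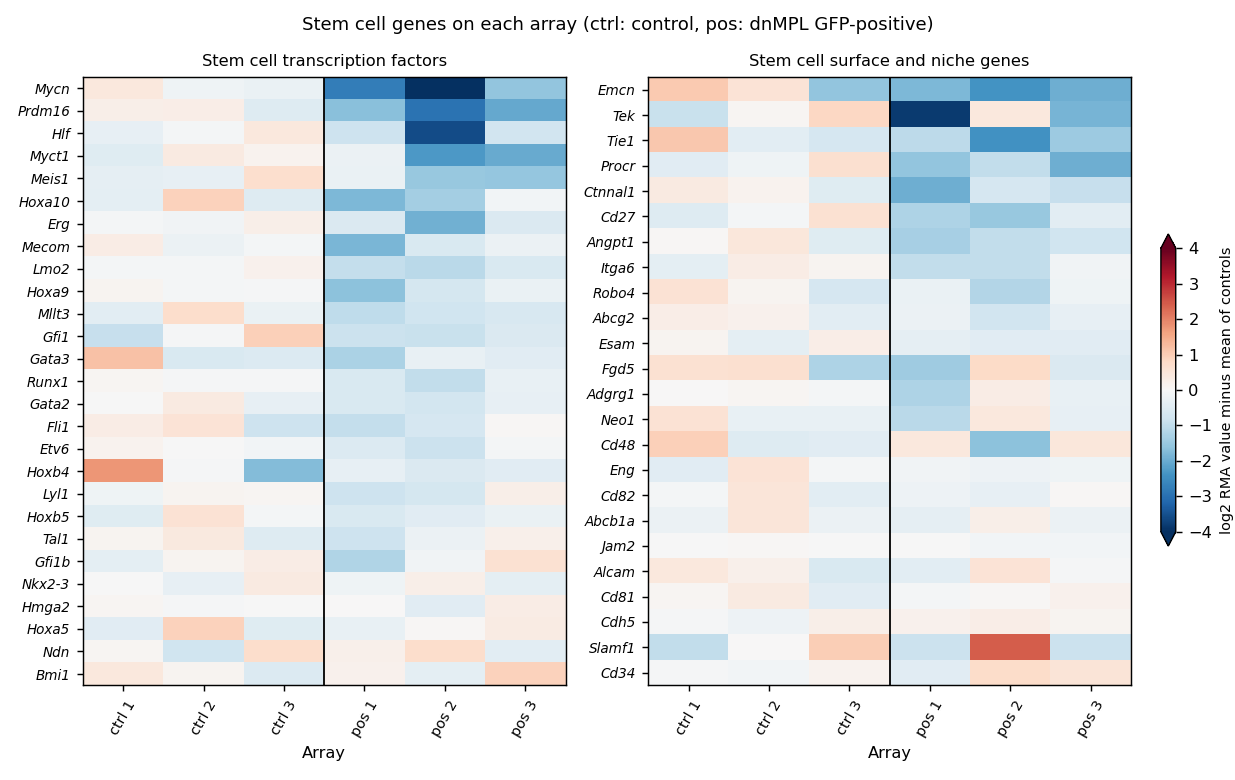
Level of each measured stem cell gene on each of the 6 arrays minus its mean over the 3 control arrays (colour, difference of log2 RMA values, limited to 4 in both directions), for 27 transcription factors on the left and 24 surface and niche genes on the right, ordered by the difference between the groups. Blue GFP-positive columns dominate the upper rows of both panels, and GFP-positive 2 holds the deepest values of Mycn and Hlf, 3.6 and 5.96.

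Megakaryocyte and platelet genes were lower in 16 and higher in 8 of 24. Below all controls were 4 (background 3.6%), and 6 were lower at an unadjusted limma p under 0.05 (background 2.58%). The median was -0.29, and -0.2 without the arrays that stood apart. Gng11, a G protein gamma subunit of platelets, was at 6.06, 5.24 and 5.29 in controls and at 4.39, 3.84 and 4.3 in GFP-positive cells, a difference of -1.35 ± 0.3 (limma adjusted p = 0.688). Every GFP-positive value lay clearly below the controls. Itga2b, the integrin CD41 of megakaryocytes and some stem cells, was at 7.75, 7.94 and 7.59 against 6.69, 7.45 and 7.17, a difference of -0.66 ± 0.25. Vwf, von Willebrand factor, which marks platelet-biased stem cells, was at 3.54, 4.36 and 3.95 against 3.41, 3.36 and 3.22, a difference of -0.62 ± 0.26. Both genes were separate between the groups, though Vwf was near the lower end of the array's range. Pf4, platelet factor 4, was at 6.77, 9 and 7.38 against 5.93, 4.08 and 7.17, with overlapping groups and a difference of -1.99 ± 0.79. Selp, P-selectin, differed by -1.66 ± 0.69, and by -0.85 without the arrays that stood apart. The platelet glycoproteins Gp6 and Gp9 differed by -0.43 and -0.37.

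Immediate early genes, which respond to a stimulus without new protein synthesis, were lower in 24 and higher in 6 of 30. All GFP-positive values were below all controls in 11 and above in 2 (background 3.6% and 3.57%). At an unadjusted limma p under 0.05, 11 were lower and 2 higher (background 2.58% and 2.63%). The median was -0.56, and -0.66 without the arrays that stood apart. The letters TGACG are the core of the cyclic AMP response element, a promoter element known for immediate early genes. The promoters of Nr4a1, an orphan nuclear receptor, and Dusp1, a MAP kinase phosphatase, are shown because they held several such matches, and neither gene overlapped between the groups. Each window runs 5′ to 3′ on the strand of the gene from 250 bases before to 50 bases after the start, from RefSeq on GRCm38.p6, chr15:101266596-101266895 (+) for Nr4a1 and chr17:26508423-26508722 (-) for Dusp1. Capitals mark TGACG or its reverse complement CGTCA.
Nr4a1: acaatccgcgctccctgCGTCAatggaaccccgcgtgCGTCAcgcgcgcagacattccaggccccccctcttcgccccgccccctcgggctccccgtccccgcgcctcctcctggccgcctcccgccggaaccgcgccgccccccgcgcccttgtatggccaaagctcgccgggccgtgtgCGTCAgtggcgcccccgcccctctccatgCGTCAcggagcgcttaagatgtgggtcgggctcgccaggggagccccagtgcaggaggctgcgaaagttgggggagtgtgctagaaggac
Dusp1: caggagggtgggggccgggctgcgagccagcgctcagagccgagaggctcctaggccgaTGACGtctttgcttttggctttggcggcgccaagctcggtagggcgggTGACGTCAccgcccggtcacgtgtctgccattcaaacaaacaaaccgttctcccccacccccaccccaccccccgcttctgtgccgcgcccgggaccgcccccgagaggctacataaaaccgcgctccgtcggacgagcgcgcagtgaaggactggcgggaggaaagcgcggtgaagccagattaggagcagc
Nr4a1 held 4 matches, whose first bases lay 233, 213, 69 and 40 bases before the start. Dusp1 held 3, at 191, 143 and 140 bases before it, of which the last pair overlap on opposite strands. Either orientation of TGACG was found in 6837 of 32851 RefSeq windows of this length (20.8%). A match describes the letters of the window and does not show that a factor binds there.

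Nr4a1 was at 10.44, 9.13 and 8.27 in controls and at 7.25, 7.05 and 7.23 in GFP-positive cells, a difference of -2.11 ± 0.56. GFP-positive values were close together, and the spread lay in the controls (SD 1.09). Egr1, a zinc finger factor, was at 10.39, 9.23 and 10.39 against 8.66, 7.24 and 8.34, and Klf6, a Krüppel-like factor, at 11.35, 10.73 and 10.48 against 9.69, 8.66 and 9.79. Their differences were -1.92 ± 0.47 and -1.47 ± 0.36, and the groups did not overlap for either gene. The other probe sets of Klf6 gave -0.48, -1.04, 0.01 and 0.11. Rgs1, a regulator of G protein signalling, was at 11.1, 10.3 and 10.54 against 8.69, 9.93 and 9.11, a difference of -1.4 ± 0.34. Jun and Nr4a2, an AP-1 factor and a nuclear receptor, differed by -1.1 ± 0.31 and -1.33 ± 0.4, and Dusp1 by -0.88 ± 0.36. Fos and Fosb, partners of Jun, differed by -1.41 ± 0.63 and -1.28 ± 0.72 with groups that overlapped. Control 1 was the highest control for Nr4a1, Jun, Klf6, Rgs1, Dusp1, Fos and Fosb, and tied with control 3 for Egr1. Egr2 and Dusp6, related members of the same families as Egr1 and Dusp1, were higher on every GFP-positive array, by 0.99 ± 0.35 and 0.79 ± 0.32. Egr2 had low means, 2.99 in controls and 3.99 in GFP-positive cells.

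Heat shock chaperones, which share the stress response, were lower in 7 and higher in 4 of 11, with a median of -0.11. Bag3, a cochaperone, differed by -1.1 ± 0.42 with overlapping groups, and Hsph1, a large heat shock protein, by -0.38 ± 0.23. Dnaja1, an Hsp40 protein, was at 11.26, 11.19 and 11.16 in controls and at 10.89, 10.8 and 10.65 in GFP-positive cells. It was lower on every GFP-positive array by a mean of -0.42 ± 0.2, whereas the mean of its probe sets gave 0.18.

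Genes of the primary granules, which are made at the promyelocyte stage and already in granulocyte-monocyte progenitors, were higher in 9 and lower in 1 of 10. All GFP-positive values lay above all controls in 5 (background 3.57%), and 5 were higher at an unadjusted limma p under 0.05 (background 2.63%). The median was 0.91, and 0.87 without the arrays that stood apart. Promoters of the granule proteases Ctsg (cathepsin G), Elane (neutrophil elastase) and Prtn3 (proteinase 3), and of Fcgr3, are shown because these genes were higher in GFP-positive cells and each window holds the letters GAGGAAG once. These letters contain the GGAA core recognised by ETS factors such as PU.1, a master regulator of myeloid genes. The windows, from RefSeq on GRCm38.p6 and written as above, are chr14:56102525-56102824 (-) for Ctsg, chr10:79886062-79886361 (+) for Elane, chr10:79879417-79879716 (+) for Prtn3 and chr1:171059354-171059653 (-) for Fcgr3, which has 2 entries, of which the first is used. Capitals mark GAGGAAG or its reverse complement CTTCCTC.
Ctsg: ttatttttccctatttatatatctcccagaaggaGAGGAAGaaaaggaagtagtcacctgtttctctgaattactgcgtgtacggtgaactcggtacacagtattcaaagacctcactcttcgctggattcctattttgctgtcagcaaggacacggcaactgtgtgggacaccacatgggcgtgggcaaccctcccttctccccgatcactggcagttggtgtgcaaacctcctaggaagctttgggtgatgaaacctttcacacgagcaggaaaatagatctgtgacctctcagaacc
Elane: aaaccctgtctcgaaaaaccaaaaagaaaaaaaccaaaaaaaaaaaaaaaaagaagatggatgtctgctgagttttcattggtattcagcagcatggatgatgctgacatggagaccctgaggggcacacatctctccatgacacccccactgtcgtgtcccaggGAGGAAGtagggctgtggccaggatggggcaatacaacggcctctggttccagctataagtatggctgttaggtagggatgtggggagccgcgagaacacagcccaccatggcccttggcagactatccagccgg
Prtn3: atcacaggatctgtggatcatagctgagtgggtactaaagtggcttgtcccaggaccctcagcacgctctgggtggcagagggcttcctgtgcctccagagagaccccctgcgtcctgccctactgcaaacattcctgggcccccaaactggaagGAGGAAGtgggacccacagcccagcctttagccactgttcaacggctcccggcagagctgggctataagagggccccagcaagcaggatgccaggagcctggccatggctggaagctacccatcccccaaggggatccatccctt
Fcgr3: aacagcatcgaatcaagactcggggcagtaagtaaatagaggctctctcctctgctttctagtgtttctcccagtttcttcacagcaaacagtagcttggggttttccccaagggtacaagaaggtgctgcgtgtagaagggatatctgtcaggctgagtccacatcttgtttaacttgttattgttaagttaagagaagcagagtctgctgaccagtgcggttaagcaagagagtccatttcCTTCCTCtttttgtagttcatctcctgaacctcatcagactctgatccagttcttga
The first base of the match lay 216 bases before the start in Ctsg, 85 in Elane, 95 in Prtn3 and 7 in Fcgr3, where it is on the opposite strand. Either orientation was found in 4477 of 32851 windows (13.6%). Elane and Prtn3 lie close together on chromosome 10.

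Ctsg was at 8.84, 8.58 and 6.89 in controls and at 10.49, 10.45 and 11.21 in GFP-positive cells, a difference of 2.61 ± 0.48 (limma adjusted p = 0.571). Every GFP-positive value exceeded every control, and control 3 was the lowest. Elane was at 8.05, 6.69 and 6.1 against 10.1, 8.14 and 9.88, a difference of 2.42 ± 0.63, with GFP-positive 2 just above control 1. Ms4a3, a membrane protein of granulocyte-monocyte progenitors, was at 5.1, 6.06 and 4.96 against 8.32, 6.78 and 8.7, a difference of 2.56 ± 0.51. Mpo, myeloperoxidase, and Prtn3 were higher by 0.81 ± 0.28 and 0.76 ± 0.32, and in both GFP-positive 2 lay within the range of the controls. Cst7, cystatin F, differed by 1.03 ± 0.48, while Srgn, the granule proteoglycan serglycin, differed by -0.37 ± 0.33.

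Late neutrophil genes, expressed from the myelocyte stage on, were higher in all 17 measured. Groups did not overlap in 7 (background 3.57%), and 13 had an unadjusted limma p under 0.05 (background 2.63%). The median difference of 2.9 was 4.45 without control 3 and GFP-positive 2, and 4.23 without control 3 alone. Averaged over the list, the level was 6.4, 5.44 and 8.68 on the controls and 10.5, 9.27 and 8.72 on the GFP-positive arrays, so that control 3 came close to GFP-positive 3. These transcripts are known from mature cells, which the lineage gate is meant to remove. More cells of a type and more RNA per cell cannot be told apart in such bulk samples.

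Ifitm6, an interferon-induced membrane protein of myeloid cells, was at 2.67, 2.73 and 5.3 in controls and at 9.45, 8.5 and 7.7 in GFP-positive cells. The difference was 4.98 ± 0.99, from a low control mean of 3.57. Lcn2, lipocalin, was at 5.17, 3.47 and 8.3 against 10.6, 9.14 and 8.9, a difference of 3.9 ± 1.13. Control 3 was the highest control in both. Anxa1, annexin A1, broke that pattern, with controls at 7.9, 7.87 and 7.51 and GFP-positive values of 10.13, 9.54 and 8.91, and its difference was 1.77 ± 0.51. S100a8, a calcium-binding protein that fills the neutrophil cytosol, was at 9.04, 7.43 and 11.87 against 13.47, 12.63 and 12.38. The granule proteins Ltf, Camp and Mmp8 differed by 3.41 ± 1.18, 3.52 ± 1.1 and 3.25 ± 1.03. Itgam, the myeloid lineage antigen CD11b, was at 3.69, 3.39 and 5.2 against 5.85, 4.22 and 4.09, so its groups overlapped and the difference was 0.63 ± 0.6. The part of mature neutrophils in the higher myeloid genes was not tested.

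Among myeloid transcription factors 9 of 14 were higher, 3 of them above all controls (background 3.57%), with a median of 0.26. Irf8, a factor of monocyte and dendritic cell fate, was at 5.67, 5.76 and 4.08 in controls and at 6.82, 5.95 and 6.96 in GFP-positive cells. The difference was 1.41 ± 0.52, and its other probe set gave 0.22. The groups did not overlap, with GFP-positive 2 the nearest. Cebpd, a CCAAT-binding factor, and Spi1, which encodes PU.1, differed by 0.83 ± 0.38 and 0.47 ± 0.27, and Spi1 was above the controls on each GFP-positive array. Cebpa, which starts granulocyte fate, differed by 0.47 ± 0.5 and by -0.29 without the arrays that stood apart. Gfi1, a repressor needed for neutrophils and stem cells, differed by -0.77 ± 0.42.

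Monocyte and macrophage genes were higher in 10 and lower in 4 of 14. Above all controls were 7 and below them 1 (background 3.57% and 3.6%). The median of the list was 1.1, and 1.08 without the arrays that stood apart. Ccr2, a chemokine receptor of monocytes, was at 4.29, 3.68 and 4.54 in controls and at 6.67, 6.52 and 5.15 in GFP-positive cells, a difference of 1.94 ± 0.41, and its other probe sets gave 0.89, 1.74 and 0.43. Lgals3, galectin 3, was at 2.74, 4.86 and 4.2 against 7.92, 6.56 and 6.68, a difference of 3.12 ± 0.67. Both genes were separate between the groups. Ly86, which pairs with a Toll-like receptor homologue, differed by 2.26 ± 0.63, with 4.49 on GFP-positive 2 against 7.3 and 6.66 on the others. Lgals3 and Ly86 had low control means, 3.93 and 3.89. Cd68, a lysosomal protein of macrophages, was the gene below all controls, with a difference of -0.69 ± 0.52 that became -0.16 without the arrays that stood apart. Fcgr1, the high-affinity Fc gamma receptor, differed by -0.57 ± 0.32.

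Fc receptor and ITAM genes, which couple antibody binding to activation of myeloid cells, were higher in 10 and lower in 4 of 14. With a median of 0.94, and 1.32 without the arrays that stood apart, 6 of them lay above all controls (background 3.57%). Beside Fcgr3, its signalling chain Fcer1g was at 6.66, 6.05 and 5.27 in controls and at 7.55, 7.74 and 6.88 in GFP-positive cells, and the adaptor Tyrobp at 9.89, 10.13 and 10.39 against 11.54, 10.88 and 11.11. Both were separate between the groups, with differences of 1.4 ± 0.44 and 1.04 ± 0.29. Trem3, a myeloid receptor that uses Tyrobp, differed by 1.4 ± 0.44 and Sirpa, an inhibitory receptor, by 0.85 ± 0.31. The control mean of Trem3 was low, at 3.98. Downstream kinases and enzymes of the pathway were on the other side, with Syk, Btk and Plcg2 at -0.9 ± 0.81, -0.78 ± 0.38 and -0.82 ± 0.42, and the groups overlapped for all 3. Without the arrays that stood apart the difference of Btk was -0.17. That of Syk was then 0.28, since GFP-positive 2 held 5.53 for Syk.

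Dendritic cell and MHC class II genes had a median near the background, 0.09, with 1 of 15 above all controls (background 3.57%). That gene was Itgax, the integrin CD11c, at 3.3, 3.39 and 4.11 in controls and 4.97, 6.79 and 5.01 in GFP-positive cells. The difference was 1.99 ± 0.48, from a low control mean of 3.6. H2-Ab1, a class II chain, differed by 1.26 ± 0.58, and by 0.39 without the arrays that stood apart, but its other probe sets gave -0.42 and -0.5. Mast cell, basophil and eosinophil genes were higher in 12 and lower in 3 of 15, with a median of 1.08. Groups were separate in 3, all higher (background 3.57%), and 5 were higher at an unadjusted limma p under 0.05 (background 2.63%). The mast cell protease Cma1 was at 4.1, 4.01 and 4.12 in controls and at 6.66, 5.85 and 4.87 in GFP-positive cells, and the basophil protease Mcpt8 at 5.43, 4.59 and 5.62 against 7.14, 5.76 and 6.38. The groups were separate for both, with differences of 1.72 ± 0.53 and 1.21 ± 0.39. Hdc, which makes histamine, differed by 2.02 ± 0.86 with overlapping groups.

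Red cell genes of the membrane, globins and heme synthesis were higher in 18 and lower in 3 of 21. Groups did not overlap in 9 (background 3.57%) and 8 had an unadjusted limma p under 0.05 (background 2.63%), all higher. The median was 0.8, and 0.66 without the arrays that stood apart. Beside Slc4a1, Car1 was at 6.12, 6.88 and 4.89 in controls and at 8.53, 8.36 and 9.19 in GFP-positive cells. Tfrc, the transferrin receptor that brings iron into cells, was at 7.05, 8.32 and 8.14 against 9.37, 9.74 and 9.41. Its difference was 1.67 ± 0.36, with other probe sets at 1.97 and 1.28, and every GFP-positive value was more than 1 above the highest control. Ermap, an erythroid membrane protein, was at 6.95, 4.99 and 4.56 against 9.35, 7.82 and 8.27, a difference of 2.98 ± 0.67. The Rh proteins Rhag and Rhd and the membrane anchor Ank1 differed by 2.04 ± 0.55, 1.04 ± 0.3 and 1.69 ± 0.4, and none of these groups overlapped. For Ank1 the other probe sets gave 0.75, 0.05 and 0.13. Rhag was near the lower end of the range in controls, with a mean of 1.3.

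Hba-a1, an alpha globin, was at 3.97, 4.46 and 4.14 in controls and 3.96, 4.74 and 4.24 in GFP-positive cells, with overlapping groups. Alas2, the first enzyme of heme synthesis in red cells, differed by 1.17 ± 0.69, and by 0.32 without the arrays that stood apart, since GFP-positive 2 held 7.08 against 4.29 and 4.73. Regulators of the lineage were mixed, with 5 of 12 higher and a median of -0.11, which was 0.09 without the arrays that stood apart. Klf1, the erythroid Krüppel-like factor, was at 6.78, 5.3 and 4.38 against 5.77, 7.14 and 7.37, a difference of 1.27 ± 0.62 with overlapping groups. Gata1, the master regulator of red cells and megakaryocytes, differed by 0.53 ± 0.68, Epor, the erythropoietin receptor, by -0.34 ± 0.6 and Trim10, a protein of red cell maturation, by 1.2 ± 0.68, with a high value of 6.33 on GFP-positive 2. Bcl11a, a globin and lymphoid repressor, differed by -0.96 ± 0.47, with a high value of 10.82 on control 3, and by -0.36 without that array. Of its other 6 probe sets 3 gave positive values, of 1.51, 0.68 and 0.04, and the mean of its probe sets differed by -0.03.

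**Figure D3:**
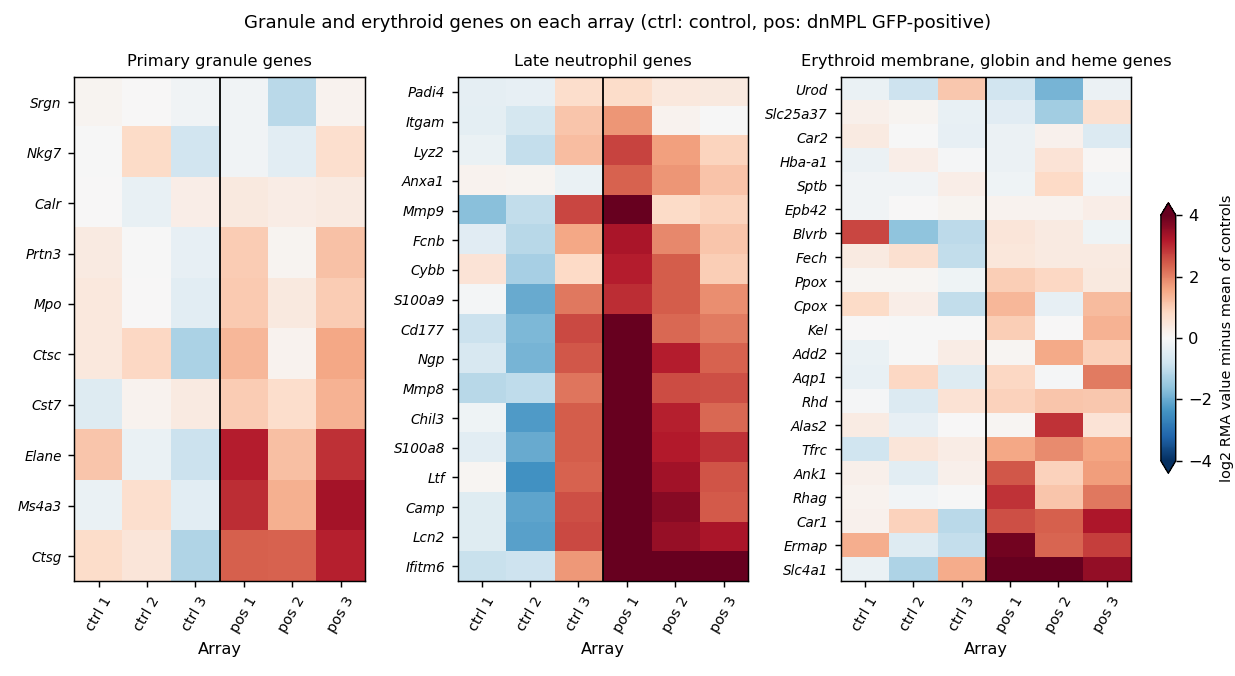
Level of each measured gene on each of the 6 arrays minus its mean over the 3 control arrays (colour, difference of log2 RMA values, limited to 4 in both directions) for primary granule, late neutrophil and red cell genes, ordered by the difference between the groups. Control 3 is red for most late neutrophil genes but blue for Ctsg, Elane and Car1, while the GFP-positive columns are red for the lower rows of all 3 panels.

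Lymphoid priming genes were higher in 9 and lower in 5 of 14, with a median of 0.31. Rag1, which cuts antigen receptor genes, was at 5.03, 3.86 and 5.19 in controls and 7.78, 6.51 and 6.29 in GFP-positive cells, a difference of 2.17 ± 0.55 with separate groups. Dntt, expressed in lymphoid-primed progenitors, differed by 0.45 ± 0.32, Ccr9, a thymus homing receptor, by 0.84 ± 0.46 and Flt3, the receptor of multipotent progenitors, by 0.06 ± 0.23. B cell genes were higher in 17 of 18, with a median of 0.7, but groups were separate in only 1 (background 3.57%). Ms4a1, the B cell antigen CD20, was that gene, at 1.35, 1.36 and 3.81 against 6.28, 6.38 and 5.93, a difference of 4.02 ± 0.78, and its other probe set gave 1.17. Its control mean of 2.17 was near the lower end of the range, where a difference has no exact size. Pax5, the factor of B cell identity, was at 3.83, 4.08 and 4.91 against 7.6, 9.45 and 4.89, and Pou2af1, a B cell coactivator, at 7.66, 2.83 and 3.8 against 8.98, 7.4 and 7.38. In each a control reached a GFP-positive value, and the differences were 3.04 ± 0.98 and 3.15 ± 1.23. The other probe set of Pax5 gave 0.46. T and NK cell genes were higher in 10 and lower in 5 of 15, with a median of 0.14. Groups were separate in 3, all higher (background 3.57%), and 0 had an unadjusted limma p under 0.05 (background 5.21% in either direction). The 7 members above the 40th percentile of level had a median of -0.21. Cd3e, Cd3d and Cd3g, chains of the T cell receptor complex, differed by 0.81 ± 0.36, 0.77 ± 0.45 and 0.67 ± 0.3. Cd3e and Cd3g lay below that percentile. Cd3e is also an antigen of the lineage gate, and it was at 2.63 to 3.04 in controls and 3.27 to 3.82 in GFP-positive cells, low in both. The part of mature lymphocytes in these values was not tested.

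Genes of endothelium and stroma were higher in 17 and lower in 5 of 22, with a median of 0.3, and 0.06 without GFP-positive 2. At an unadjusted limma p under 0.05, 3 were higher and 1 lower (background 2.63% and 2.58%). Fabp4 stood at 4.57, 4.34 and 5.63 in controls and 7.9, 8.59 and 7.12 in GFP-positive cells. Pecam1, the adhesion molecule CD31 of endothelium and leukocytes, was at 6.68, 6.52 and 6.22 against 7.15, 7.8 and 7.59, a difference of 1.04 ± 0.31. Both genes were separate between the groups. Adipoq, adiponectin of fat cells, was at 2.05, 2.46 and 2.05 against 4.17, 5.84 and 2.89, and Cxcl12 and Lepr, genes of marrow stroma, differed by 2.06 ± 0.91 and 1.22 ± 0.58. Cxcl12 and Lepr were chosen after their values were seen, and Adipoq and Lepr had low levels in controls, with means of 2.19 and 3.2. Kdr and Plvap, defining genes of endothelium, differed by -0.07 ± 0.21 and 0.32 ± 0.36 with overlapping groups. Pdgfrb was the list's gene lower at an unadjusted limma p under 0.05, at 7.61, 6.52 and 7.48 against 6.23, 5.99 and 6.66. Its groups overlapped, the difference was -0.91 ± 0.34, and its other probe set gave -2.08. The part of stromal cells in these differences was not tested.

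**Figure D4:**
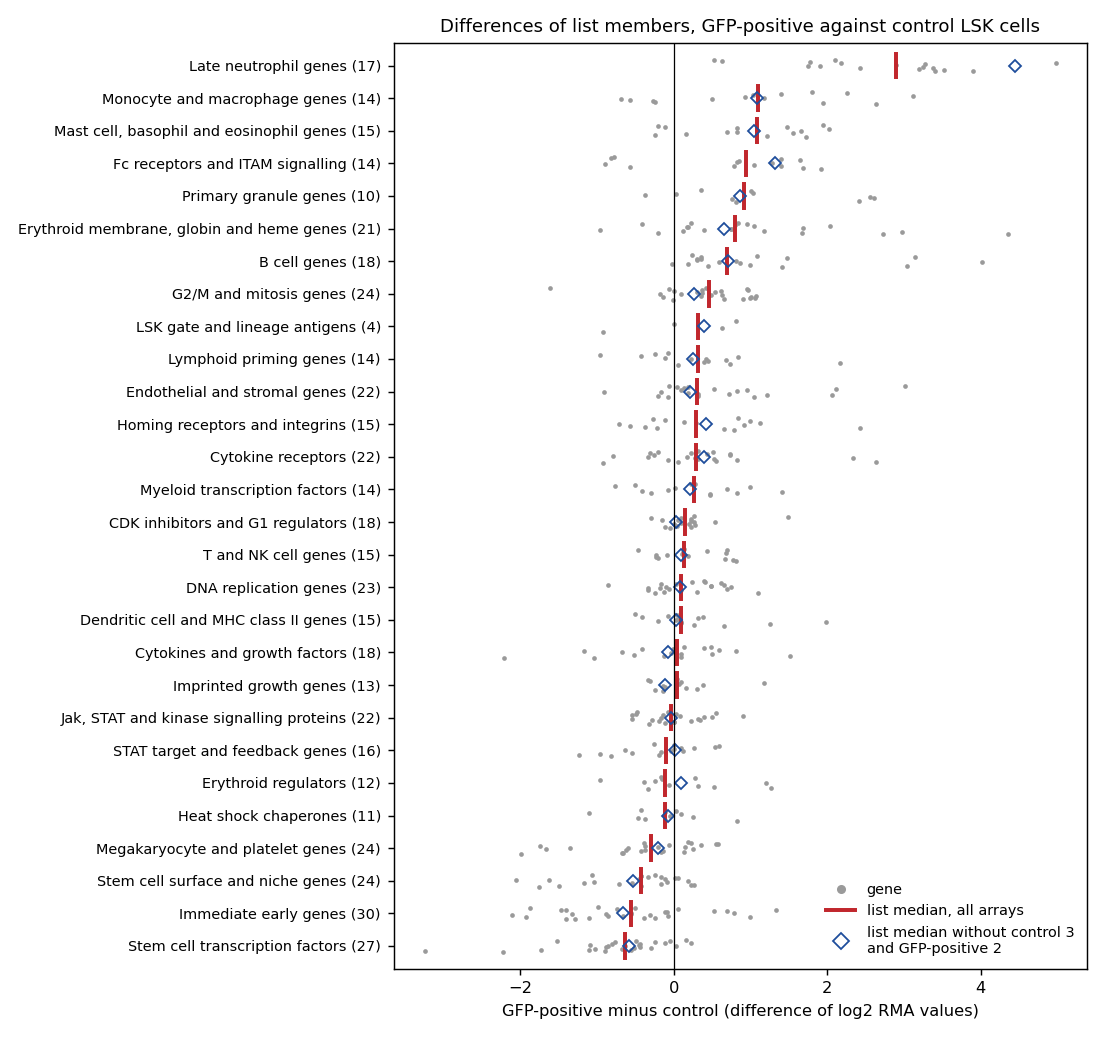
Difference between GFP-positive and control LSK cells (log2 RMA values, horizontal axis) for every measured member of each gene list (grey points, number measured in parentheses), with the list median over all arrays (red line) and without control 3 and GFP-positive 2 (open diamond). Late neutrophil genes lie farthest to the right, with medians of 2.9 and 4.45, and stem cell transcription factors farthest to the left over all arrays, with a median of -0.63, beside -0.56 for immediate early genes.

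Cytokine receptors were higher in 15 and lower in 7 of 22, with 3 above all controls (background 3.57%) and a median of 0.29. Il6ra, the interleukin 6 receptor, was at 5.93, 5.91 and 3.92 in controls and at 7.41, 8.39 and 6.95 in GFP-positive cells, a difference of 2.33 ± 0.57, and its other probe set gave 0.03. Ifnar1, a chain of the type I interferon receptor, was at 6.75, 6.76 and 6.69 against 7.49, 7.9 and 7.02, a difference of 0.73 ± 0.27, but its other probe set gave -0.35. Both sets of values were separate between the groups at the brightest probe set. Cytokines and growth factors were evenly divided, 9 higher and 9 lower of 18. Those below all controls were 3 (background 3.6%), namely Il15, Angpt1 and the chemokine Ccl4. Ccl4 was at 7.74, 7.05 and 6.92 in controls and at 6, 6.09 and 6.12 in GFP-positive cells, a difference of -1.17 ± 0.34.

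Homing receptors and integrins, which hold stem cells in the marrow and guide leukocytes, were higher in 9 and lower in 6 of 15. The list had 4 genes above all controls (background 3.57%) and a median of 0.29. Cxcr4, the receptor that retains stem cells in their niche, was at 11.34, 11.8 and 10.88 in controls and 12.17, 12.25 and 11.95 in GFP-positive cells, a difference of 0.79 ± 0.28. Cd44, the hyaluronan receptor, was at 8.17, 8.63 and 7.24 against 8.94, 9.04 and 9.04, a difference of 0.99 ± 0.36. For Cd44 the other probe sets gave 0.03, 0.07 and 0.64. Both were separate between the groups, and both were lowest on control 3. Cxcr2, a neutrophil chemokine receptor, differed by 2.43 ± 0.82 with control 3 at 7.19, above GFP-positive 3 at 6.82. The integrins Itga6, Itga4 and Itgb1 of the stem cell niche differed by -0.71 ± 0.38, -0.38 ± 0.24 and -0.57 ± 0.38.

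Genes of mitosis were higher in 19 and lower in 5 of 24, with 4 above all controls (background 3.57%) and a median of 0.46. At an unadjusted limma p under 0.05, 2 were higher and 1 lower (background 2.63% and 2.58%). The median was 0.15 without control 3 and 0.26 without both arrays that stood apart. Averaged over the list, the controls were at 8.25, 8.15 and 7.32 and the GFP-positive arrays at 8.4, 8.08 and 8.46, so that control 3 was the lowest of the 6. Ccna2, cyclin A, was at 9.4, 9.29 and 8.7 against 9.94, 10.25 and 9.89, a difference of 0.9 ± 0.27 with separate groups. Plk1, a mitotic kinase, differed by 1.06 ± 0.38 and Mki67, the Ki-67 antigen of proliferating cells, by -0.01 ± 0.21. Cdc25c was the list's gene lower at an unadjusted limma p under 0.05, at 8.68, 6.82 and 8.41 against 6.14, 5.87 and 7.07. Its groups overlapped, the difference was -1.61 ± 0.56, and its other probe set gave 0.29. In G1 regulators the median was 0.15, and Ccne1, cyclin E, was the 1 gene separate between the groups (background 7.17%). It was at 6.18, 5.79 and 5.79 in controls and 6.98, 8.22 and 7.05 in GFP-positive cells, a difference of 1.49 ± 0.38. Ccnd2 and Ccnd3, D-type cyclins, differed by 0.27 ± 0.2 and 0.54 ± 0.51, and Cdkn1c, the inhibitor p57 of quiescent stem cells, by -0.11 ± 0.28 near the lower end of the range. DNA replication genes had a median of 0.1, with Fen1, a flap endonuclease, and Cdc6, a licensing factor, higher on every GFP-positive array by 0.62 ± 0.19 and 0.75 ± 0.29, and Mcm2, a helicase subunit, by a mean of 1.1 ± 0.49 with overlapping groups. Imprinted growth genes had a median of 0.04, and -0.12 without the arrays that stood apart. Of these Igf2r, the scavenger receptor of insulin-like growth factor 2, differed by 1.17 ± 0.4 with overlapping groups, and Meg3 and Sgce by 0.3 ± 0.3 and -0.33 ± 0.37.

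The GFP-negative LSK cells of hosts given dnMPL-transduced cells were used to ask which differences were larger in GFP-positive cells. Of 45037 probe sets, 0 differed between GFP-positive and GFP-negative cells at a limma adjusted p under 0.05 (smallest 1.0), and 1235 (2.74%) had an unadjusted p under 0.05. Among named genes 441 (2.42%) had such a p. The GFP-negative mean lay between the control and GFP-positive means in 13 of the 15 leading higher genes and 12 of the 15 lower ones. The genes were chosen by their GFP-positive and control values, which favours such an ordering, and the fractions share the same controls. The ordering is therefore only a description of the levels. Whether a GFP-negative and a GFP-positive array with equal numbers share their mice is not stated.

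Of the 30 leading genes, 6 had an unadjusted limma p under 0.05 between the fractions, beside 2.42% of all named genes. The 30 were chosen by the same GFP-positive values, so this count cannot be read as an excess. Il15 was at 4.91, 5.19 and 5.92 on the GFP-negative arrays, between the controls and the GFP-positive arrays, and the fractions differed by -1.45. Fndc10 and Mmaa were placed the same way, with differences of -1.58 and -1.2. Gda was at 7.11, 6.1 and 5.29 in GFP-negative cells, a difference of 1.9, and 1 GFP-negative array exceeded the lowest GFP-positive array. Fcgr3 was at 6.86 on each GFP-negative array, and the fractions differed by 0.55 in this gene and by 0.63 in Gria3.

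Of 24 stem cell surface and niche genes, 2 differed between GFP-positive and GFP-negative cells at an unadjusted limma p under 0.05 (background 2.42%). The median difference of the list was 0.01. Stem cell transcription factors had a median of -0.19. Procr was at 5.56, 5.93 and 5.43 in GFP-negative cells and differed between the fractions by 0.89 ± 0.36. Esam was at 5.38, 4.67 and 4 in GFP-negative cells, a difference of 0.88 ± 0.35. In both genes all GFP-negative arrays were below all GFP-positive arrays, which in turn had a lower mean than the controls. The medians between the fractions were -0.06 for lymphoid priming, 0.11 for B cell, 0.02 for T and NK cell and 0.03 for dendritic cell genes. Among the single genes of these lists, the differences were 3.14 in Ms4a1, 2.63 in Pax5, 1.5 in Rag1, 1.11 in Cd3g, 1.64 in Itgax and -0.4 in Cd3e. Ms4a1, Cd3g and Cd3e had low mean levels, under 4.03. Cebpd and Ifnar1 were higher by 0.95 and 0.82, and Mllt3 was lower, with a difference of -0.84. Between the fractions, late neutrophil genes had the highest median of all lists, 0.82, beside 0.17 for primary granule and 0.21 for red cell genes. In each of these lists 0 members had an unadjusted limma p under 0.05 (background 2.42%). Single genes differed by 0.18 ± 0.63 in Elane, 0.8 ± 1.13 in Lcn2, 0.21 ± 0.36 in Tfrc and 1.03 ± 0.74 in Slc4a1.

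**Figure D5:**
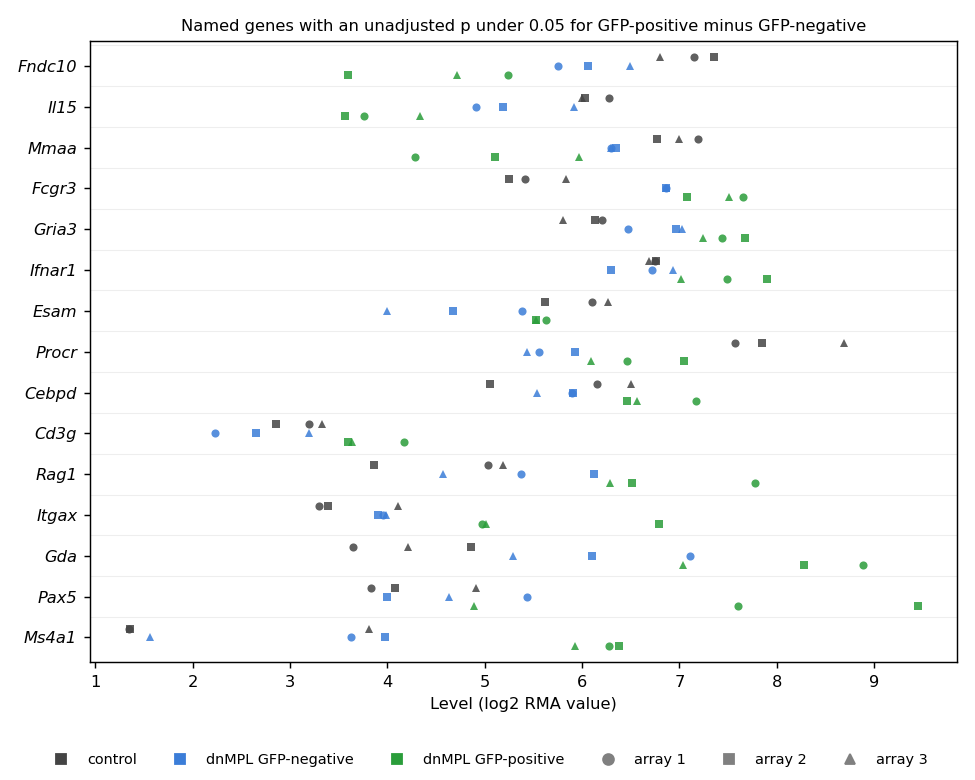
Levels (log2 RMA value, horizontal axis) of 15 genes of the naming rule with an unadjusted limma p under 0.05 between GFP-positive (green) and GFP-negative (blue) cells, with control arrays in grey and a marker shape for each array number. The GFP-negative values of Il15, Fcgr3 and Gria3 lie between the other groups, and those of Procr and Esam lie below both.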

How the data were processed

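LSK cells were profiled on 9 mouse expression arrays, 1 per pool of mice, in 3 groups. Values are the deposited log2 values, made by the authors with RMA per the submitters' processing notes, which name no version. The genome build is not given in the sources used here. RMA normalizes between arrays, so an equal shift of all genes would not be seen. Of 45101 probe sets 64 were controls and were left out. By the platform annotation 34945 probe sets belong to 1 gene (34741 found in RefSeq), 932 to several genes and 9160 to none. Probe sets with several genes or none were tested but not named, and each gene is given at the probe set with the highest mean.

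Groups were fitted over all 9 arrays with lmFit and eBayes in limma 3.58.1 (R 4.3.3), with no filter and with Benjamini-Hochberg adjustment at 0.05. Simulated data used normal noise with the pooled SD within groups of each probe set, equal on all arrays. The fit of 45037 probe sets for GFP-positive minus control recovered 2% of changes of 1 on the log2 scale. It recovered 34% of changes of 2, 54% of 3 and 80% of 4, and called 7 unchanged probe sets. The real arrays differed in weight, which the simulation left out.

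The comparison and its 28 gene lists (467 of 504 genes measured) were chosen with earlier results of these data known. The text names, of the 12398 genes above the 40th percentile of level (4.03), the 15 higher and 15 lower with the smallest p and separate groups, the 3 members of each list with the smallest p, and a fixed set of Thpo, Tek, Esam, Procr, Kit, Ly6a, Flt3, Slamf1, Vwf, Cdkn1c and Mki67 where measured. Other genes were chosen after their values were seen. A few genes of the rule are not reported here.

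Replicate numbers are shared between groups in the titles. Deviations of same-numbered control and GFP-positive arrays correlated at -0.0224, -0.153 and -0.267. Those of same-numbered GFP-negative and GFP-positive arrays correlated at 0.0938, -0.0356 and -0.0903. The numbers were not taken as pairs, because the sources used here do not say that they mark shared mice. Alternatives were a filter on low values, the mean of probe sets, fewer arrays in the fit, another variance prior, array weights, a further quantile normalization, a replicate block, another threshold and leaving arrays out.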

Additional observations from a re-analysis of the deposited data

How the results depend on the processing

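No probe set passed the adjusted threshold of 0.05 with limma under any alternative run. The smallest adjusted p for GFP-positive against control was 0.078 with array weights and 0.0872 without GFP-positive 3, and 0.55 with the replicate block. With the replicate block 523 genes were higher and 446 lower at an unadjusted p under 0.05, and for GFP-positive against GFP-negative cells the smallest adjusted p was 0.643, so the block changed no call. The control that correlated best with each GFP-positive array had another number. Array weights raised those counts to 957 and 1076. Leaving out 1 array gave 429 to 634 higher and 350 to 789 lower genes, the last without GFP-positive 3. Genes with separate groups numbered 2282 to 3365 without 1 array and 5558 without both control 3 and GFP-positive 2, because fewer values make separation easier. The alternatives for variance prior, arrays in the fit, weights, normalization and block were not run for that count. Of 2364 differences of 170 named genes under 14 alternatives, 44 in 17 genes had the opposite sign, and 2320 kept their sign. With array weights these were Cdkn1c at 0.1, Cebpa -0.08, Dntt -0.0084, Epor 0.21, Hba-a1 -0.08, Kdr 0.06, Mki67 0.1, Plvap -0.11 and Slamf1 -0.2. Without both arrays they were Cebpa at -0.29, Epor 0.37, Hba-a1 -0.12, Mki67 3e-05, Plvap -0.16, Slamf1 -0.37 and Syk 0.28. The mean of probe sets gave Dnaja1 0.18, Meg3 -0.03, Ptprc -0.12, Slamf1 -0.36 and Stat3 -0.07, and quantile normalization Ptprc -0.0058 and Stat3 -0.0026. Without 1 array at a time the values ran as follows: Cdkn1c -0.28 to 0.12, Cebpa -0.14 to 0.86, Epor -1.04 to 0.03, Flt3 -0.06 to 0.17, Gata1 -0.07 to 0.97, Hba-a1 -0.09 to 0.3, Kdr -0.17 to 0.06, Mki67 -0.11 to 0.12, Ptprc -0.15 to 0.11, Slamf1 -0.86 to 0.78, Stat3 -0.02 to 0.03, Stat5a -0.2 to 0.14. Of 392 list medians 42 moved by over 1 SD of the list level and 24 in 10 lists changed sign. Those lists were the gate, Jak, STAT and kinase signalling, STAT targets, imprinted, dendritic, erythroid regulators, T and NK, cytokines, heat shock and DNA replication genes. The cause was not tested for any of these shifts.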
